A study of Mus musculus with 13 samples.

Results

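The sites described here are 523 genomic regions with centres more than 1000 bp from every annotated transcript start. At these sites SMAD3 ChIP signal was lower in Dox+ than in Dox- cells. They were chosen by their centre's distance to the transcript starts of GENCODE vM21 (mm10) and by the authors' group means in their deposited table of differential binding. That table lists 2080 of 13217 tested regions, of which 904 have lower SMAD3 in Dox+, and 523 of these 904 are distal by their centres. Of the 523, 492 also have their nearest edge more than 1000 bp from every start, and the others reach closer. Of all 3863 distal tested regions, 693 are listed with higher SMAD3 in Dox+ and 2647 are not listed. Being listed as lower is thus true of 6.84% of all tested regions and of 13.5% of the distal ones. The SMAD3 levels of the 523 sites are what chose them, so these levels are described without a test.

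SMAD3 carries signals of the TGF-β and activin receptors to the nucleus, where it binds DNA with SMAD4. SMAD proteins alone bind short DNA words weakly and are known to gather at enhancers that cell-type factors already occupy, such as AP-1, TEAD and C/EBP proteins in fibroblasts and other mesenchymal cells. The paper reports that early after induction of OCT4, SOX2, KLF4 and c-MYC, the loci bound by OCT4 had open chromatin. In the fibroblasts the same loci were closed. This does not show whether the induced factors also bind enhancers that are active in fibroblasts.

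All cells were mouse embryonic fibroblasts (MEFs) from a line with a Nanog+/GFP reporter and, at the Sp3 locus, a tetO cassette encoding c-Myc, Klf4, Oct4 and Sox2 with mOrange (MKOS-ires-mOrange) next to a CAG-driven rtTA, on a mixed background. Every group, also the one without doxycycline, had been infected with a retrovirus for Smad3CA, a constitutively active SMAD3, so the comparison is of induced against uninduced factors in cells that all carry Smad3CA. SMAD3 was immunoprecipitated on day 3 from Dox+ cells (n = 3) and Dox- cells (n = 3) and OCT4 from Dox+ cells (n = 3), with 2 inputs per dox condition. The labels give 1 µg/ml doxycycline, the methods a lower dose for reprogramming, and no label says that replicates are separate cultures. ChIP data hold no expression markers with which to check the cell type label.

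The replicate peak lists differed widely in length, from 1656 to 18588 peaks in Dox- and from 420 to 23981 in Dox+. In both groups replicate 1 had the shortest list and replicate 2 the longest. Results that rest on the lists are given below for each replicate. The fraction of cells that carry a factor at a site and the amount per cell cannot be told apart in pooled cells.

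Sequences of 6 sites show what these regions look like. They come from the sites with the largest difference and, for Ccl2, from those with the highest Dox- level, and were picked after the values were seen to show windows with and without matches outside annotated exons. Each is printed 5′ to 3′ on the plus strand of GRCm38.p6 (RefSeq), as 60 bases on each side of the AP-1 match nearest the centre, or of the centre where the site holds no AP-1 match. Capitals mark AP-1 (TGACTCA or TGAGTCA), C/EBP (TTGCNNAA) and TEAD (CATTCC) matches on either strand, and each site is named by a neighbouring gene.
Rsad2 (chr12:26442007-26442133): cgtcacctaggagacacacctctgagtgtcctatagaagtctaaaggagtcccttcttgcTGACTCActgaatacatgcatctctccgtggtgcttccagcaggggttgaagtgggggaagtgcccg
Ppp1r15b (chr1:133119787-133119907): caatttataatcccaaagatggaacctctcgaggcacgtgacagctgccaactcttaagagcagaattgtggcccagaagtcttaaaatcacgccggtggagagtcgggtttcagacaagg
Npvf (chr6:50957661-50957781): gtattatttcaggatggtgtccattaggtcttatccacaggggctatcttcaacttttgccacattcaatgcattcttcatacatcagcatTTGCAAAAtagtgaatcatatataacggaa
Cxcl15 (chr5:90820015-90820135): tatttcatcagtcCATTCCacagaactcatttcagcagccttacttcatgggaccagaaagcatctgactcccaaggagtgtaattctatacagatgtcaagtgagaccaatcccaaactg
Ppm1h (chr10:122768725-122768845): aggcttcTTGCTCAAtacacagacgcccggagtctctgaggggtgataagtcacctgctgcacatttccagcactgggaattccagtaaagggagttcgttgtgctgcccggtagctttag
Ccl2 and Gm17268 (chr11:82038645-82038771): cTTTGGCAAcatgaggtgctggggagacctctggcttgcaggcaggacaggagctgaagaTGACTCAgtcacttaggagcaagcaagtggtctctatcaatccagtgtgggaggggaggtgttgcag

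AP-1 matches stand in the Rsad2 and Ccl2 windows, C/EBP matches in the Npvf, Ppm1h and Ccl2 windows and a TEAD match in the Cxcl15 window. The Ppp1r15b window holds none of the 3. Since C/EBP matches had the largest excess over both other classes of distal regions, as described below, 4 further windows show such matches with 30 bases on each side. They were chosen after the values were seen and have only C/EBP matches in capitals.
Ntf3 (chr6:126107172-126107239): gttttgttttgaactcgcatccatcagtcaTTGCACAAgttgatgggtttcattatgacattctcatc
Ccl2, upstream site (chr11:82006918-82006985): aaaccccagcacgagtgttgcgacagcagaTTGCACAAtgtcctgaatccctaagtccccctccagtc
Ski (chr4:155217305-155217372): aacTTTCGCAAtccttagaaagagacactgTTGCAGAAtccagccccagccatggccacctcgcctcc
Smad3 (chr9:63702601-63702668): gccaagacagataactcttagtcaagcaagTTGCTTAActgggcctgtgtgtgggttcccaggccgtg

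The Ntf3 and Ccl2 windows hold TTGCACAA, one of the words most in excess at the 523 sites. The Ski and Smad3 windows lie in introns of genes of the TGF-β pathway itself.

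SMAD3 levels at the 523 sites covered a wide range already without dox. The authors' mean SMAD3 signal, on a log2 scale of normalised read counts, had a median of 3.76 in Dox-, with the middle 80% of sites between 3.10 and 4.85 and the highest at 7.98. In Dox+ the median was 1.70 and the highest 6.35. The difference between both means ranged from 1.01 to 5.10 with a median of 1.96, and it reached 2 at 246 sites, 3 at 49 sites and 4 at 3 sites. At 26 sites the Dox+ mean was 0.20, the lowest value in that column of the table, and none of these 26 had a peak in any Dox+ list. Their differences are therefore read as lower bounds. These are means over the 3 libraries of a group, with no value per library and so no SD.

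**Figure D1:**
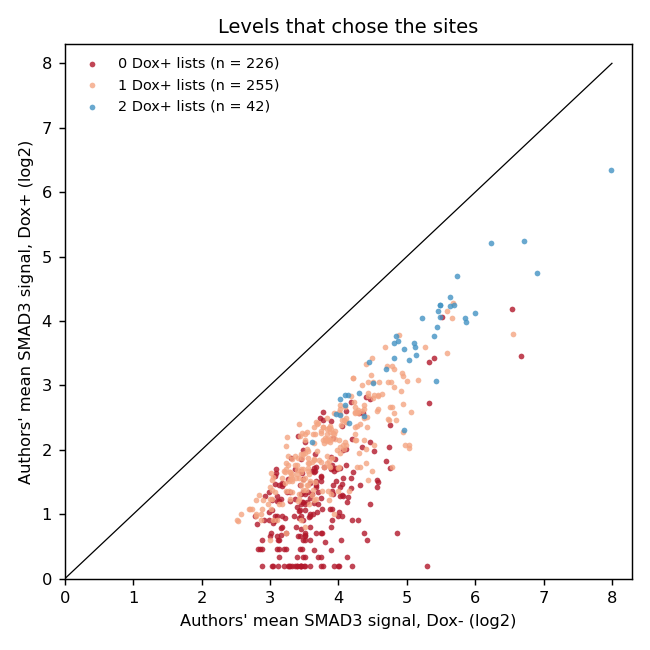
Each point is 1 of the 523 sites, with the authors' mean SMAD3 signal (log2) in Dox- on the x axis and in Dox+ on the y axis, and colours give the number of Dox+ replicate lists with a peak there. All points lie below the line of equal values, as the choice of sites requires, and the 42 sites with a peak in 2 Dox+ lists have the higher medians in both conditions (5.11 and 3.66).

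At the distance limit, the nearest sites included were 1032.5 bp from a start near Prdm1 (3.16 in Dox-, 1.24 in Dox+) and 1041.5 bp near Ajuba (3.22 and 1.66). Among the nearest ones left out were sites 981 bp away near Serpinh1 (5.86 and 3.77) and 914 bp away near Onecut3 (4.10 and 2.16).

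Peak calls in single libraries gave a mixed picture of how completely SMAD3 was lost from these sites. In Dox-, a peak was called at 21 of the 523 sites (4.02%) in replicate 1, at 522 (99.8%) in replicate 2 and at 338 (64.6%) in replicate 3. In Dox+ the counts were 0, 288 (55.1%) and 51 (9.75%). For each replicate number the Dox- list covered more of the sites than the Dox+ list, although the Dox+ lists of replicates 2 and 3 held more peaks in all. Averaged over lists, Dox- covered 56.2% ± 48.5 (SD, n = 3) and Dox+ covered 21.6% ± 29.4 (SD, n = 3), which differed by less than the spread between libraries, and the groups overlap. All 6 libraries entered the authors' contrast, so these counts are a description. Peaks called on the pooled reads covered 490 sites (93.7%) in Dox- and 55 (10.5%) in Dox+.

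**Figure D2:**
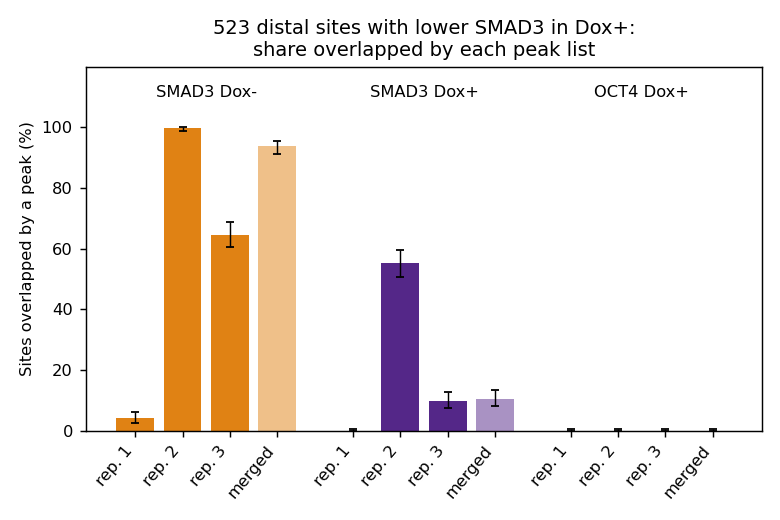
Bars give the percent of the 523 sites overlapped by at least 1 bp of a peak in each replicate list and, paler, in the list called on pooled replicates, for SMAD3 Dox-, SMAD3 Dox+ and OCT4 Dox+. Error bars are exact 95% binomial intervals over sites. Dox- replicate 2 covers 99.8% of sites, Dox+ replicate 2 covers 55.1%, and no OCT4 list covers any.

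The most frequent combination, at 218 sites (41.7%), was a peak in Dox- replicates 2 and 3 and in no Dox+ list. Next came a peak in replicate 2 of each group and in no other list, at 151 sites (28.9%), and Dox- replicates 2 and 3 with Dox+ replicate 2, at 90 sites (17.2%). Altogether 226 sites had a peak in at least 2 Dox- lists and in no Dox+ list, a pattern that 6.32% of all distal tested regions had, and since the same libraries chose the sites nothing is read from this. The count rests on 2 libraries: it was 1 without Dox- replicate 2 and 8 without Dox- replicate 3, and it became 320 without Dox+ replicate 2. Many of the peaks were weak: with only peaks of a q-value of at most 0.01, Dox- replicate 2 covered 130 sites (24.9%) and Dox+ replicate 2 covered 95 (18.2%).

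The 10 sites with the largest difference among these 226 lay 7.52 to 1409 kb from the nearest protein-coding transcript start. The first was chr12:26440926-26443170, between genes, 14.4 kb from a protein-coding transcript start of Rsad2, which encodes the antiviral enzyme viperin. Its mean was 5.29 in Dox- and 0.20 in Dox+ (authors' log2 means), with a peak of 2.35-fold in Dox- replicate 2 and of 2.25-fold in Dox- replicate 3 and none elsewhere. The second, chr1:133119064-133120631, was 11.3 kb from Ppp1r15b, a phosphatase subunit that acts on eIF2α, at 4.86 in Dox- and 0.71 in Dox+. The third, chr14:74327322-74328920, lay in an intron of the gene Gm49171, 313 kb from the serotonin receptor gene Htr2a, with 4.20 in Dox- and 0.20 in Dox+.

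The others were near Ccdc63, in an intron of the neurotrophin gene Ntf3 (chr6:126106741-126107799, 4.01 and 0.20), near the neuropeptide gene Npvf, 1409 kb from the adhesion gene Flrt2, near the chemokine gene Cxcl15, and at 2 places in introns of the phosphatase gene Ppm1h. Their differences ranged from 3.57 to 3.83. Since 6 of the 10 sites, that of Rsad2 among them, had the lowest Dox+ value of 0.20, these differences are lower bounds and the order among the 10 is not exact. All 10 had peaks in Dox- replicates 2 and 3 and none in Dox- replicate 1 or in any Dox+ list. Their peak heights ran from 2.12 to 2.98-fold in Dox- replicate 2 and from 1.57 to 4.27-fold in replicate 3.

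The 5 sites with the highest Dox- level were broader and kept signal in Dox+. The site over Ypel4, chr2:84733845-84740806, was 6962 bp long and centred in an exon, with 7.98 in Dox- and 6.35 in Dox+, and had a peak in all 3 Dox- lists and in Dox+ replicates 2 and 3. The site chr11:82034609-82040031 spans exons of Ccl2, a monocyte-attracting chemokine gene, and of Gm17268, and had 6.91 and 4.74. The site near Thbs1 (chr2:118127376-118130334), which encodes the matrix protein thrombospondin-1, an activator of latent TGF-β, had 6.72 and 5.25. Mx2, an interferon-induced antiviral GTPase, had a site at chr16:97561940-97567254 with 6.67 and 3.45 and no peak in any Dox+ list. The neutrophil-attracting chemokine gene Cxcl5 had a site at chr5:90758447-90764322 with 6.56 and 3.80. Of these 5, the Mx2 site alone lacked a peak in every Dox+ list. The sites at Ypel4, Ccl2 and Cxcl5 reach over a protein-coding transcript start, which lay 3.27, 1.24 and 2.01 kb from their centres.

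The sites lay deeper between and within genes than other distal SMAD3 regions. Their median distance to the nearest protein-coding transcript start was 40.4 kb, against 14.8 kb for distal regions with higher SMAD3 in Dox+ and 15.6 kb for distal regions not listed. Only 22.6% (exact 95% interval 19.0 to 26.4) lay within 10 kb of such a start, against 41.7% (38.0 to 45.5) and 39.5% (37.6 to 41.4). Their centres fell in introns in 231 cases (44.2%, interval 39.9 to 48.5), in exons in 27 cases (5.16%, 3.43 to 7.42) and between genes in 265 cases (50.7%). The share in exons was 10.7% (8.48 to 13.2) among regions with higher SMAD3 and 9.82% (8.71 to 11) among those not listed. Intervals here and below cover counting error over sites, which are not replicates, so they test no effect of dox. The sites were 210 to 6962 bp wide with a median of 818 bp.

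**Figure D3:**
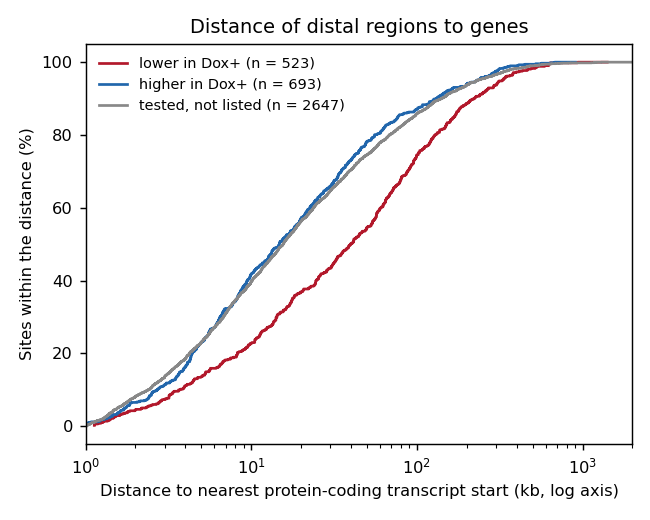
Lines give the percent of distal regions (y axis) whose centre lies within a given distance in kb (x axis, log scale) of the nearest protein-coding transcript start, for the 3 classes. The line of the 523 sites lies to the right of both others, with medians of 40.4, 14.8 and 15.6 kb.

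No OCT4 peak was called at these sites. None of the 523 overlapped a merged OCT4 peak, which allows a share of up to 0.574% by the limit of 3 counts, and none overlapped a peak of any OCT4 replicate list. OCT4 peaks overlapped 133 of 693 distal regions with higher SMAD3 (19.2%, interval 16.3 to 22.3) and 35 of 2647 not listed (1.32%, 0.923 to 1.83). Promoter-proximal sites with lower SMAD3 had none either (0 of 381). The OCT4 lists were short, with 1191, 1131 and 103 peaks in replicates 1, 2 and 3 and 2083 merged. A missing peak therefore does not show that OCT4 was absent. The OCT4 lists were not used in choosing the sites, but they come from the same Dox+ cells. An OCT4 peak lay within 100 kb of 72 of the 523 sites (13.8%, interval 10.9 to 17), against 34.8% (31.2 to 38.5) of regions with higher SMAD3 and 17.3% (15.9 to 18.8) of those not listed. The closest pair was 292 bp apart, between the site chr11:28908909-28909618, 6.40 kb from Efemp1, and an OCT4 peak of 4.00-fold. That site, near the gene of the matrix protein fibulin-3, had 4.19 in Dox- and 1.41 in Dox+.

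The reference sequence around the centres held C/EBP matches more often than in either other class. C/EBP proteins are leucine-zipper factors of mesenchymal, adipose and inflammatory gene programmes. In windows of 250 bp on each side of the centre, TTGCNNAA on either strand was present at 194 of the 523 sites (37.1%, interval 32.9 to 41.4). It was present in 21.2% (18.2 to 24.4) of distal regions with higher SMAD3 and in 23.2% (21.6 to 24.9) of those not listed. In a flank 500 to 1000 bp to the left of the centre the share was 22.2% for the 523 sites and 20.4% for regions not listed. The mean number of matches per window was 0.507 at the sites and 0.258 in their flanks, while regions not listed had 0.272 and 0.225 (flanks on both sides). At least 2 matches were found in 10.1% of the sites, in 2.02% of regions with higher SMAD3 and in 3.48% of those not listed.

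**Figure D4:**
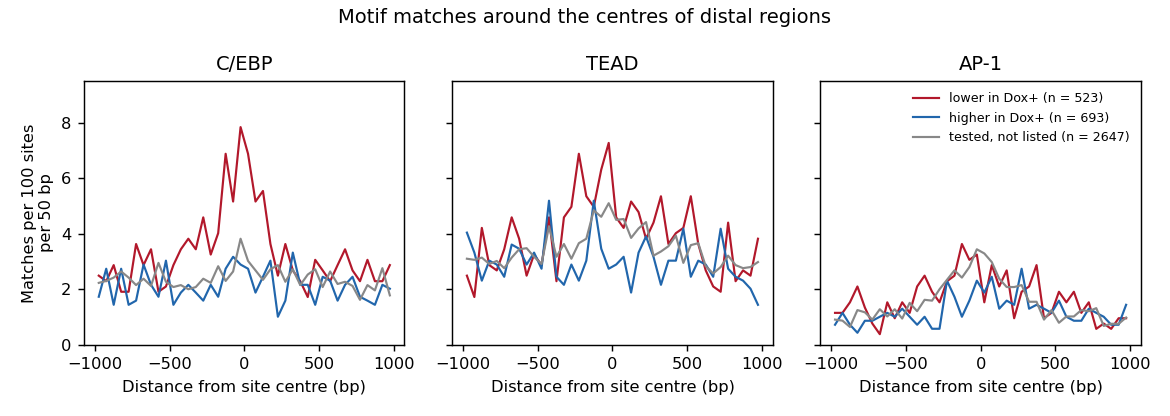
Lines give the number of matches per 100 regions in bins of 50 bp (y axis) by distance from the centre in bp (x axis) for C/EBP, TEAD and AP-1 in the 3 classes of distal regions. C/EBP matches at the 523 sites peak at the centre with 7.84 matches per 100 sites, and AP-1 matches at the sites run at heights similar to those in regions not listed.

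The excess was found in each class of GC content, that is below 45.9%, from there to 52.3% and above it, the limits that divide all distal regions into 3 groups of similar size. In the low class the C/EBP share was 46.2% (interval 39.2 to 53.2) against 33.6% (30.3 to 37.0) of regions not listed, in the middle class 35.1% (28.3 to 42.5) against 21.6% (18.9 to 24.5), and in the high class 25.4% (18.2 to 33.8) against 16.0% (13.7 to 18.5). Among regions over 10 kb from every transcript start it was 41.5% (35.8 to 47.4) against 27.9% (25.2 to 30.7). Within the 523 sites, the share was 40.3% (33.8 to 47.0) at those with no Dox+ peak, 36.5% (30.6 to 42.7) with a peak in 1 Dox+ list and 23.8% (12.1 to 39.5) with a peak in 2, so the intervals overlap.

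The words behind the C/EBP matches were not equally in excess. TTGCACAA was present at 40 sites (7.65%, interval 5.52 to 10.3), in 1.88% of regions with higher SMAD3 and in 2.64% (2.07 to 3.33) of those not listed. TTGCTCAA was present at 37 sites (7.07%, 5.03 to 9.62), against 2.16% and 2.00% (1.5 to 2.61). TTGCTTAA was present at 4.40% (2.81 to 6.53) against 1.59% and 2.08% (1.57 to 2.70). TTGCAGAA, by contrast, was as frequent at the sites (3.63%, 2.20 to 5.62) as in regions not listed (3.02%, 2.40 to 3.75). The palindrome TTGCGCAA, which contains a CpG, was at none of the 523 sites (interval 0 to 0.703%). It was in 8 of 2647 regions not listed (0.302%), so these counts are too small to show a difference.

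Among the other 16 motifs, TEAD matches were also more frequent at the sites. TEAD factors carry the output of YAP and TAZ in adherent cells, and CATTCC was present at 40.2% (interval 35.9 to 44.5) of the sites, 28.0% (24.7 to 31.5) of regions with higher SMAD3 and 33.5% (31.7 to 35.3) of those not listed. Over 10 kb from every transcript start it was 43.5% (37.8 to 49.4) against 38.1% (35.2 to 41.1) of those not listed. There, up to 10 kb and in each GC class the share was higher at the sites, but the intervals overlapped. AP-1, the leucine-zipper factor of FOS and JUN proteins, had a match at 21.0% (17.6 to 24.8) of the sites, much like the 22.1% (20.5 to 23.7) of regions not listed, against 15.6% (13.0 to 18.5) of regions with higher SMAD3. Both C/EBP and TEAD matches were present at 16.4% (13.4 to 19.9) of the sites, against 5.92% (4.28 to 7.94) and 8.39% (7.36 to 9.51). RUNX matches (TGTGGT) had similar shares in all 3 classes, from 33.7% to 36.1%.

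The short SMAD words did not separate the sites from other distal regions in one direction. The half-site CAGAC was present at 71.1% (interval 67.0 to 75) of the sites, 70.0% (66.4 to 73.4) of regions with higher SMAD3 and 74.4% (72.7 to 76.1) of those not listed. The GC-rich SMAD word GGCGCC was present at 3.44% (2.05 to 5.38), 3.61% (2.35 to 5.28) and 9.26% (8.18 to 10.4). GC content itself was lower at the sites, with a median of 47.5% against 48.5% and 49.3%.

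Words of the induced factors followed no single pattern. The KLF word, GGGTGTGG or GGGCGTGG, was present at 4.97% (3.27 to 7.20) of the sites, 12.7% (10.3 to 15.4) of regions with higher SMAD3 and 10.7% (9.54 to 11.9) of those not listed. In the low, middle and high GC classes the KLF share was 1.44%, 4.32% and 11.5% at the sites. In regions not listed it was 4.87%, 10.4% and 15.8%, and the intervals overlapped in the low and high classes. ACAATG, a SOX word, was present at 23.3% (19.8 to 27.2), 30.7% (27.3 to 34.3) and 20.2% (18.7 to 21.8). The octamer ATGCAAAT, to which OCT4 binds and which can share bases with a C/EBP match, was present at 3.25% (1.90 to 5.15), 2.31% and 2.23%. The E-box CACCTG, a word bound by SNAIL and ZEB factors, was present at 19.1% (15.8 to 22.8), 32.5% (29.0 to 36.1) and 24.2% (22.6 to 25.9), but in the middle GC class it was as frequent at the sites (24.3%) as in regions not listed (23.8%).

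**Figure D5:**
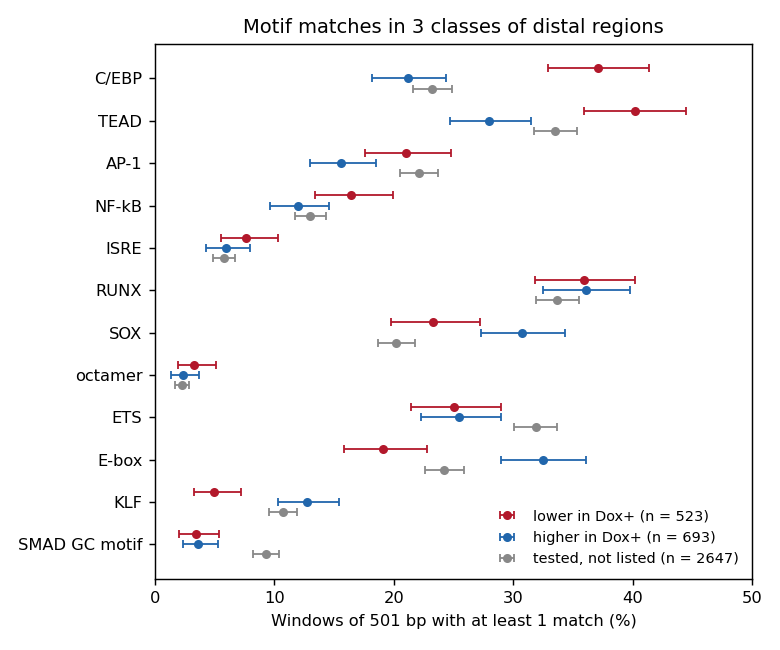
Points give the percent of windows (250 bp on each side of the centre) with at least 1 match (x axis) for 12 motifs in the 523 sites and both other classes of distal regions, with exact 95% binomial intervals. C/EBP stands at 37.1% in the sites and at 21.2% and 23.2% in the others, and KLF at 4.97%, 12.7% and 10.7%.

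Genes of the TGF-β pathway were among the neighbours of the sites. A gene was counted when a site's centre lay in the gene or within 50 kb of one of its transcript starts, and 718 of 21901 genes with a protein-coding transcript (3.28%) met this, or 12.7% of those that have any distal tested region. A distal region with higher SMAD3 was found for 6.80% of all these genes, or for 1489 of the 5669 with any distal tested region. Of 30 listed genes of the pathway, 7 had a site (23.3%), or 50.0% of the 14 with a distal tested region, and 3 had a distal region with higher SMAD3. The lists were chosen with earlier results of these data known, and neighbouring genes are not known to be targets. Within 10 kb of a transcript start alone, the genes with a site numbered 4 in this list, 4 in the matrix list and 3 in the interferon list given below. The share of all genes was not counted under this rule, so no excess is read from these numbers.

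By role, the receptors Tgfbr3, the co-receptor betaglycan, and Acvr1b, an activin receptor, had 3 sites and 1 site. The signal carrier Smad3 had 2 intronic sites, chr9:63716094-63716888 (3.18 in Dox- and 0.81 in Dox+) and chr9:63702546-63703024 (2.80 and 1.22). The inhibitors with a site were Smad7 (4.51 and 2.80), Ski (chr4:155217215-155217709, 4.05 and 1.30), Pmepa1 (chr2:173263370-173264264, 3.94 and 2.58) and Fst, which encodes the activin-binding follistatin (3.17 and 1.56). At the Ski site peaks were called in Dox- replicates 1 and 2 (2.44-fold and 2.55-fold) and in no Dox+ list. At the Smad7 site peaks were called in Dox- replicates 2 and 3 and in Dox+ replicate 2 (1.72, 1.75 and 2.20-fold), so there the peak calls of both groups overlap.

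Of 34 extracellular matrix genes, 11 had a site (32.4%), or 42.3% of the 26 with a distal tested region. A distal region with higher SMAD3 was found for 3 of the 34 (8.82%, against 6.80% of all genes). Among genes with a distal tested region these were 3 of 26, against 1489 of 5669 over all genes, so the direction depends on the base. The highest Dox- levels in this list were at Thbs1, given above, at the collagen cross-linking enzyme Lox (5.32 and 2.73, with peaks in Dox- replicates 2 and 3 only) and at Col1a2, a chain of type I collagen (chr6:4541417-4544330, 5.12 and 3.59, with peaks in Dox- replicate 2 and in Dox+ replicates 2 and 3). Others included Col6a1, Bgn, Loxl1, Sparc, Fbln1, Col4a2 and Tnc.

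Of 42 fibroblast and mesenchymal factors, 6 had a site (14.3%, or 25% of the 24 with a distal tested region): Cebpb, Snai1, Nfix, Pdgfrb, Nfib and Foxp1. The site near Cebpb, which encodes a C/EBP protein, was chr2:167691981-167696338, 5.24 kb from a start of the gene, with 6.00 in Dox- and 4.12 in Dox+ and a peak of 2.65-fold in Dox- replicate 2, of 3.12-fold in Dox+ replicate 2 and of 1.97-fold in Dox+ replicate 3. The site chr2:167569883-167571533, 32.5 kb from Snai1, a repressor of epithelial genes, had 4.75 and 1.72 with peaks in Dox- replicates 1 and 2 only. A nearer site, chr2:167543190-167544347, 5.57 kb from Snai1, had 4.10 and 2.69. Its peaks were of 2.04-fold in Dox- replicate 2 and of 4.04-fold and 3.14-fold in Dox+ replicates 2 and 3. An intronic Nfix site had 4.68 and 3.60. Pdgfrb, a growth factor receptor of mesenchymal cells, had 2 intronic sites at 4.47 and 4.32 in Dox- and 2.12 and 2.40 in Dox+.

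Of the 10 lists in use, the interferon response list had the largest share of genes with a site, 7 of 19 (36.8%), or 77.8% of the 9 with a distal tested region. None of the 19 had a distal region with higher SMAD3, against 6.80% of all genes. With so few genes nothing is read from this count of 0. The 7 genes with a site share 5 sites, since Rsad2 and Cmpk2 have 1 in common and so have Ifit2 and Ifit3. Besides the Mx2 and Rsad2 sites described above, these are chr19:34652107-34657268 near Ifit1 (6.54 and 4.19), chr19:34590191-34591327 near Ifit2 and Ifit3 (4.07 and 1.28) and chr8:71531046-71534382 near Bst2, which encodes the virus-tethering protein tetherin (4.59 and 3.05). IFIT proteins bind viral RNA. At 4 of the 5 sites, all but that of Bst2, peaks were called in Dox- replicates 2 and 3 and in no Dox+ list. The same combination was seen at 218 of all 523 sites (41.7%), and the same libraries chose the sites, so nothing is read from this count. The interferon element ISRE, as GAAA repeated with 2 bases between, was in the sequence of the Bst2 site only. Over all 523 sites it was in 7.65% (interval 5.52 to 10.3) of windows, against 5.92% (4.28 to 7.94) and 5.74% (4.89 to 6.70).

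Chemokine genes were noticed after the values were seen, so their count is a description. Of 38 Ccl, Cxcl, Pf4 and Ppbp genes, 14 had a site (36.8%, or 87.5% of the 16 with a distal tested region), but these genes stand in clusters and share 6 sites, and 1 of the 38 had a distal region with higher SMAD3. On chromosome 11 the 3 sites near Ccl2, Ccl7, Ccl8 and Ccl12 had Dox- means of 4.44, 6.91 and 4.22 and Dox+ means of 1.53, 4.74 and 1.66. On chromosome 5 the sites at Cxcl5 and near Cxcl15 are given above, and chr5:92345203-92346188, near Cxcl9, Cxcl10 and Cxcl11, had 3.90 and 0.45 with peaks of 2.70 and 3.82-fold in Dox- replicates 2 and 3 and none in Dox+.

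The shares in the other lists were nearer to that of all genes or rest on few genes. Of 30 actin and adhesion genes, 4 had a site, Tpm1 (4.78 and 3.31), Zyx (4.70 and 3.25), Cnn2 (3.67 and 1.45) and Myh9 (3.45 and 1.70), which is 16.7% of the 24 with a distal tested region, against 12.7% over all genes. A distal region with higher SMAD3 was found for 7 (23.3%, against 6.80% over all genes). Among genes with a distal tested region these were 7 of 24, against 1489 of 5669 over all genes, a similar share. Of 15 genes of YAP, TAZ and TEAD signalling, 2 had a site, Tead3 (4.09 and 2.46) and Ajuba (3.22 and 1.66). None of 14 AP-1 family genes, 17 pluripotency genes and 15 epithelial genes had one, but these lists have only 7, 3 and 7 genes with any distal tested region, too few to read anything from a count of 0. Of 11 genes of endothelial and blood cells, the macrophage receptor Csf1r alone had a site, which is one of those in Pdgfrb.

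Few of the sites stood together. Within 50 kb of another such site were 77 of the 523 (14.7%), against 15.9% of regions with higher SMAD3 and 39.9% of the more numerous regions not listed. The largest group, chr13:51259003-51346542, held 4 sites between genes, 62.4 to 109 kb from S1pr3, a receptor for sphingosine 1-phosphate, and Nxnl2. Their Dox- means were 4.34, 3.95, 4.94 and 3.98 and their Dox+ means 2.04, 2.29, 3.15 and 1.71. The first of them was the only one of the 523 with a peak in all 3 Dox- lists and in no Dox+ list. Groups of 3 sites stood in Ppm1h, around Snai1 and Ube2v1, and at Kcp and Flnc, which encodes the actin cross-linker filamin C. A further 32 groups had 2 sites each.

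The Ppm1h group shows how far neighbouring sites differed. Over 26.5 kb of the gene, 3 intronic sites had Dox- means of 3.77, 4.07 and 5.64 and Dox+ means of 0.20, 2.08 and 4.24. The first had no Dox+ peak, the second a peak of 2.84-fold in Dox+ replicate 2, and the third peaks of 2.48-fold and 1.73-fold in Dox+ replicates 2 and 3. In the group at Kcp and Flnc the 3 sites had Dox- means of 3.48, 5.63 and 2.70 and Dox+ means of 1.53, 4.38 and 1.08. Each had a Dox+ peak.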

How the data were processed

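ChIP-seq of SMAD3 and OCT4 was analysed from the lists and tables the authors deposited, with samples grouped by antibody and dox as the labels give them. Per the methods and the submitters' processing notes, the authors trimmed reads, aligned them to mm10 with Bowtie2, removed duplicates and blacklisted reads, and called peaks with MACS2 2.1.0 against merged inputs, broad for SMAD3 and narrow for OCT4. Each deposited peak has its fold enrichment over input as a linear ratio, and its q-value as −log10. The authors' DiffBind 1.16.3 table gives group means on a log2 scale, used here, and their fold changes and p-values, not used. Read totals per library are not given in the sources used here.

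Tested regions were rebuilt by joining overlapping peaks of the 6 SMAD3 replicate lists and keeping those in at least 2 lists, and all 2080 listed sites matched exactly. Overlap meant at least 1 bp. Starts, exons and introns came from GENCODE vM21 and sequence from RefSeq GRCm38.p6, searched on both strands, overlaps allowed, for 17 motifs. Shares have exact (Clopper-Pearson) intervals. No test was run, since the libraries chose the sites and sites are not replicates. The sites, lists and motifs were chosen with earlier results of these data known. Named were the 10 sites with the largest difference among those in at least 2 Dox- and no Dox+ lists, the 5 with the highest Dox- level, the largest groups within 50 kb, and up to 3 per gene list, with a few more chosen after the values were seen. Functions were tested on simulated data. Python 3.11.15, pandas 2.3.3, scipy 1.17.1 and pysam 0.24.0 were used.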

Additional observations from a re-analysis of the deposited data

How the results depend on the processing

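The number of sites lay between 378 and 575 under the 5 other distance rules, and was 492 by distance from the nearest edge of the site. The difference between the mean shares of sites covered by Dox- and Dox+ lists was 34.5 percentage points, with a pooled SD between libraries of 40.1. It ran from 12.7 to 60.6 when each library was left out. With only peaks of a −log10 q-value of at least 2 it was 2.61. All 6 libraries chose the sites, which were not chosen anew, so the positive sign is no independent check. The count of sites with no Dox+ peak and at least 2 Dox- peaks, 226, depended on the lists: 142 with overlap of 50% of the site, 5 with the q-value limit, and 1 to 320 when each library was left out. The share in introns, 44.2%, was 36.3% with protein-coding genes only. The C/EBP share relative to distal regions not listed, 1.60, was 1.93 in windows of 100 bp on each side and 1.37 in the low GC class. In 3 settings chosen after seeing the data it was 1.49 over 10 kb from every transcript start, 1.57 up to 10 kb from one and 1.74 for the sites with no Dox+ peak. For 7 other motifs the ratio lay on the other side of 1 in 1 setting each: NF-kB, 1.27, was 0.859 in windows of 100 bp on each side, and the E-box, 0.790, was 1.02 in the middle GC class. In the high GC class ISRE, 1.33, was 0.766 and the octamer, 1.46, was 0.779, and in the low GC class RUNX, 1.07, was 0.988. By matches per kb of the whole site AP-1, 0.952, was 1.10 and the SMAD half-site, 0.956, was 1.02. Listed genes with a site numbered 38, and 21 within 10 kb, a rule under which the share of all genes was not counted. The causes of these shifts were not tested. No paired analysis was possible because the sample titles do not say whether equal replicate numbers share a culture, and no test was run. The shares of sites in each list are given side by side by replicate number. Depth per library was not given, so an absent peak in a short list says little.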

Other observations

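The share of distal tested regions that were among the 523 sites varied by chromosome. It was highest on chromosome 6, with 44 of 216 (20.4%, exact 95% interval 15.2 to 26.4), and lowest on chromosome 19, with 6 of 117 (5.13%, 1.90 to 10.8), where both Ifit sites lie. On the X chromosome it was 3 of 36.

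The authors' second table is of OCT4 against SMAD3 in Dox+ cells. Of the 523 sites, 2 overlap a region listed there, both with the higher mean for SMAD3. These are the Ypel4 site, at 3.32 for OCT4 and 5.41 for SMAD3, and a site near Nfatc4, at 1.12 and 2.98. The means are those of the first overlapping region in that table, so the SMAD3 mean at Ypel4 differs from the 6.35 given above. Of the 693 distal regions with higher SMAD3 in Dox+, 251 overlap a region listed there, 237 of them with the higher mean for OCT4 in the first such region.

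NF-kB matches were present in 16.4% (interval 13.4 to 19.9) of the 523 windows, against 12.0% (9.65 to 14.6) of regions with higher SMAD3 and 13.0% (11.7 to 14.3) of those not listed. Of the 523 sites, 31.7% (27.8 to 35.9) had no C/EBP, TEAD or AP-1 match in the window, against 49.6% (45.9 to 53.4) and 41.6% (39.7 to 43.5).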
